A study of Mus musculus with 24 samples.

Results

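Jejunal crypts of mice that had lost both Apc and the Notchless gene Nle1 were set against crypts that had lost Apc alone, 24 h after induction. The comparison uses 6 of the 24 libraries of polyadenylated RNA in the study, chosen by their titles: 3 from mice with conditional knockouts of Apc and Nle1 (ApccKO;NlecKO, called the double knockout here) and 3 from mice with the conditional knockout of Apc only (ApccKO). Each library came from 1 mouse. All mice, in both groups, were 5 to 10 weeks old and had received tamoxifen at 56 mg/kg by intraperitoneal injection on 3 consecutive days. The labels name no Cre driver, allele or strain, so the cells that were recombined are not stated. The same Nle1 contrast was also read in crypts with intact Apc on day 1 (NlecKO against Control) and in Apc-lost crypts 48 h after induction (day 2), with 3 other mice in each of these 4 groups.

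Notchless is a nuclear factor that helps to mature the large ribosomal subunit: it docks on the precursor particle, and the giant ATPase midasin (Mdn1) then pulls on it and is released together with it. When subunit assembly fails, free ribosomal proteins can bind MDM2, the ligase that keeps p53 low, and p53 then turns on genes of cell cycle arrest and cell death. APC is the scaffold that restrains Wnt signalling, the pathway that keeps intestinal crypt cells dividing and their stem cells in place.

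The 6 libraries held 17.9 to 20.5 M estimated counts, and 16552 of 37620 genes had enough counts over all 24 libraries to be tested. Epithelial markers were abundant in all 6 libraries, with Epcam at 771 to 1079 CPM and Cdx2 at 175 to 208 CPM, where CPM are counts scaled to a common library size. Stromal and endothelial markers were lower, with Col1a1 at 1.80 to 6.22, Pecam1 at 0.722 to 1.58 and Vim at 6.95 to 19.2 CPM. Pairs of libraries within a group correlated at 0.975 to 0.983 across genes. Of the 6 libraries, 3 stood apart from the other 21 of the study: double knockout replicate 3 and ApccKO replicates 2 and 3. In these 3 the transcripts Gm8730 and Gm9625 lay at or under 0.578 and 0.693 CPM, against at least 52.7 and 29.4 CPM in the other 21. They also held the intestinal lactase Lct at 295 to 455 CPM, against 64.1 to 93.4 CPM in the other 3 libraries compared. Double knockout libraries and ApccKO libraries are found on both sides of this split, so each result was also read without the 3 libraries (2 double knockout against 1 ApccKO), with only these 3 (1 against 2), and with a term for the split.

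By the quasi-likelihood test of edgeR, with p adjusted over every tested gene by the Benjamini-Hochberg method (the adjusted p throughout), 972 genes were higher (5.87% of those tested) and 790 lower (4.77%) in double knockout crypts at an adjusted p under 0.05. That makes 1762 called genes, or 10.6%. The median log2 change of all tested genes was 0.02. In 4632 genes (28.0%) the 3 double knockout libraries did not overlap the 3 ApccKO libraries. The count rested on few libraries: 600 genes were called without double knockout replicate 3, and 1007, 1110 and 927 without ApccKO replicate 1, 2 or 3. It was 33 without the 3 libraries that stood apart, 1209 with only those 3, and 2452 with a term for the split. With fewer libraries the test also has less to work with, so a lost call does not show that a gene was unchanged.

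**Figure D1:**
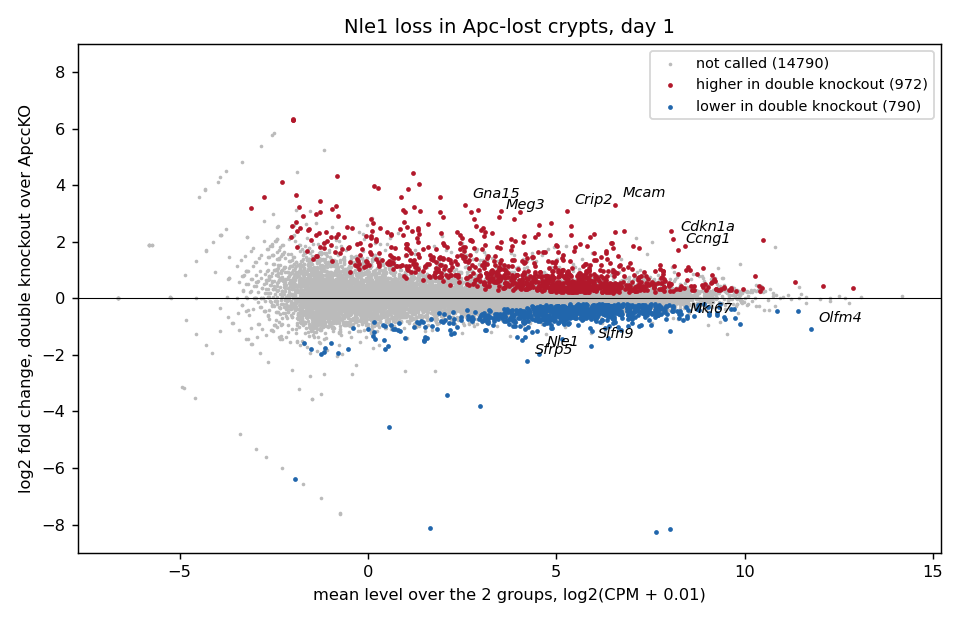
Log2 fold change of each of the 16552 tested genes (double knockout over ApccKO, day 1) against its mean level on a log2 scale in CPM. Red points are the 972 genes called higher in the double knockout and blue points the 790 called lower. Of the labelled genes, Mcam, Crip2 and Cdkn1a lie above zero and Nle1, Slfn9 and Sfrp5 below it, and the groups overlapped in the 4 called genes that lie lowest (Gm15459, Gm17431, Gm9008 and Gm4287).

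Nle1 itself was read first. Nle1 (ENSMUSG00000020692) was at 12.3, 8.66 and 7.79 CPM in the 3 double knockout libraries, against 39.9, 36.1 and 35.6 CPM in the 3 ApccKO libraries. Every double knockout library lay far below every ApccKO library, and the mean was 25.8% of the ApccKO mean (log2 change -1.95 ± 0.17 SE, adjusted p = 5.2e-07). In whole tissue RNA, fewer cells that carry a transcript and less transcript per cell cannot be told apart. Apc (ENSMUSG00000005871) was counted at 146, 142 and 146 CPM in double knockout libraries and 138, 145 and 141 CPM in ApccKO libraries (log2 change 0.03 ± 0.08, adjusted p = 0.86). A deletion of some exons would be missed by counts of the entire gene, so these values do not check the Apc label.

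Few partners of Notchless in large subunit assembly passed the test. Of 38 tested genes on a list of Nle1 and 60S assembly factors 1 was higher and 1 (Nle1) lower, where 5.87% and 4.77% of all tested genes were. The 1 that was higher was Sbds, which helps to release the factor eIF6 from new subunits. Sbds was at 70.1, 61.5 and 75.4 CPM in double knockout libraries and 54.1, 55.4 and 55.1 CPM in ApccKO libraries, without overlap (log2 change 0.33 ± 0.10, adjusted p = 0.033), and 9 of 16 alternative settings lost this call. Mdn1 was at 174, 185 and 153 CPM in double knockout libraries and 209.9, 181 and 207 CPM in ApccKO libraries (-0.22 ± 0.17, adjusted p = 0.46). The median change of the list was 0.05. Among 50 genes of RNA polymerase I and 40S assembly, edgeR called 0 in either direction, with 6 at an unadjusted p under 0.05 (3 higher and 3 lower) and a median of 0.03. DESeq2 called 1 of them lower.

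Genes that p53 is known to induce rose together. Of 20 tested arrest and feedback genes 13 were higher and 0 lower, where 5.87% and 4.77% of all tested genes were. The list had a median log2 change of 1.33, against 0.02 for all genes. Cdkn1a (ENSMUSG00000023067), the inhibitor of cyclin-dependent kinases known as p21, was at 393, 428 and 524 CPM in double knockout libraries and 109, 94.7 and 106 CPM in ApccKO libraries. The lowest double knockout value was over 3 times the highest ApccKO value (log2 change 2.12 ± 0.21, adjusted p = 5.2e-06). Mdm2, which encodes the ligase that returns p53 to low levels, was at 132, 153 and 158 CPM in double knockout libraries and 56.0, 48.8 and 53.4 CPM in ApccKO libraries (1.48 ± 0.18, adjusted p = 4.8e-05). Ccng1, an atypical cyclin that acts with Mdm2, was at 448, 452 and 488 CPM in double knockout libraries, against 153, 134 and 136 CPM in ApccKO libraries (1.71 ± 0.18, adjusted p = 1e-05).

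Zmat3, an RNA-binding protein of the p53 response, was at 181, 218 and 214 CPM in double knockout libraries and 67.2, 49.3 and 54.6 CPM in ApccKO libraries (log2 change 1.84 ± 0.20, adjusted p = 1.4e-05). The 3 members with the largest changes were Phlda3, a repressor of Akt signalling (2.34 ± 0.37, adjusted p = 0.0008), the kinase gene Plk2 (2.29 ± 0.34, adjusted p = 0.0004) and the stress cytokine gene Gdf15 (2.24 ± 0.36, adjusted p = 0.00091). Trp53, the transcript of p53 itself, was at 160.0, 174 and 148 CPM in double knockout libraries and 179, 164 and 171 CPM in ApccKO libraries, which overlap (-0.10 ± 0.13, adjusted p = 0.71). The members that did not pass included Mdm4 (0.23) and Ppm1d (0.20), which also restrain p53.

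The rise of Cdkn1a held under every setting tried. Of the p53 list genes called higher, only Cdkn1a had a pair of exact p53 decamers in a start window, so its promoter is shown. It is 1 of 2 RefSeq start windows of the gene, from 250 bases before to 50 bases after the start. The window is on the plus strand of build GRCm38.p6 at chr17:29090729-29091028. Capitals mark 2 decamers that match RRRCWWGYYY at every base, with the spacer between them (R is A or G, W is A or T, Y is C or T). The decamer that directly follows the capitals differs from this pattern at 1 base and was not marked, because no mismatch was allowed. Which decamers p53 binds was not tested.
Cdkn1a: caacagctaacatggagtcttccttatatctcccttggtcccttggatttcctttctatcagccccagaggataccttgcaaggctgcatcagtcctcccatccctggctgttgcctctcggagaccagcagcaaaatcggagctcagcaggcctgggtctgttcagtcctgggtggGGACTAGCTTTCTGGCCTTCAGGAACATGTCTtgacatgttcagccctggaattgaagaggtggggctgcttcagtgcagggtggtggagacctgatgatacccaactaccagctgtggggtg
Such a pair with at most 13 bases between the decamers was found in the windows of 1 of 56 p53 list genes that have one, and in 0.074% of 27025 gene symbols with a window. A single decamer was found in 23.2% of the p53 list genes and in 9.55% of all symbols, on either strand. It was in 27.0% of the 37 list genes called higher and in 15.8% of the 19 not called higher. Sites outside these 300 bases were not searched.

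Death genes among the p53 targets were called higher in 15 of 19 cases, against 5.87% of all tested genes, with 0 lower. Their median log2 change was 0.81. Bax, which opens the outer mitochondrial membrane, was at 280.1, 346 and 281 CPM in double knockout libraries and 151, 119 and 127 CPM in ApccKO libraries (1.19 ± 0.16, adjusted p = 9.8e-05). Ei24, a p53-induced gene of the endoplasmic reticulum, was at 182, 192 and 177 CPM in double knockout libraries and 110.2, 108 and 108 CPM in ApccKO libraries (0.75 ± 0.07, adjusted p = 4e-06). In both genes all double knockout libraries were above all ApccKO libraries. Of the death receptors, Tnfrsf10b changed by 0.97 ± 0.13 (adjusted p = 9.8e-05), Fas by 1.76 ± 0.27 (adjusted p = 0.00041) and Eda2r by 1.84. The BH3-only gene Bbc3, known as Puma, was at 49.1, 65.8 and 42.7 CPM in double knockout libraries and 27.0, 14.3 and 19.6 CPM in ApccKO libraries (1.37 ± 0.26, adjusted p = 0.0024).

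Of 30 p53 targets in metabolism and repair 16 were higher and 2 lower, where 5.87% and 4.77% of all tested genes were. The list had a median of 0.79. Dcxr, a reductase of dicarbonyls and xylulose, was at 71.9, 76.1 and 87.4 CPM in double knockout libraries and 20.6, 20.6 and 20.7 CPM in ApccKO libraries (1.92 ± 0.14, adjusted p = 1.7e-07). Ephx1, the microsomal epoxide hydrolase, was at 206, 237 and 236 CPM in double knockout libraries and 65.1, 70.1 and 61.8 CPM in ApccKO libraries (1.78 ± 0.16, adjusted p = 7.1e-07). Both had narrow groups and a wide gap between them. The share that fell was close to that of all genes. The 2 were Ddb2, which recognises ultraviolet damage (-0.63 ± 0.14, adjusted p = 0.0075), and the recombination gene Rad51c (-0.77 ± 0.23, adjusted p = 0.04). The glutaminase gene Gls2 was not called (-0.52, adjusted p = 0.11), nor were Tigar (0.07) and Rrm2b (0.15).

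Over the 3 lists of p53 targets 44 of 69 genes were called higher, against 5.87% of all tested genes. Leaving out any 1 library kept the counts at 12 or 13 for arrest, 12 to 15 for death and 14 or 15 for metabolism and repair. With only the 3 libraries that stood apart the counts were 11, 12 and 14, and without those 3 they were 1, 1 and 3.

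**Figure D2:**
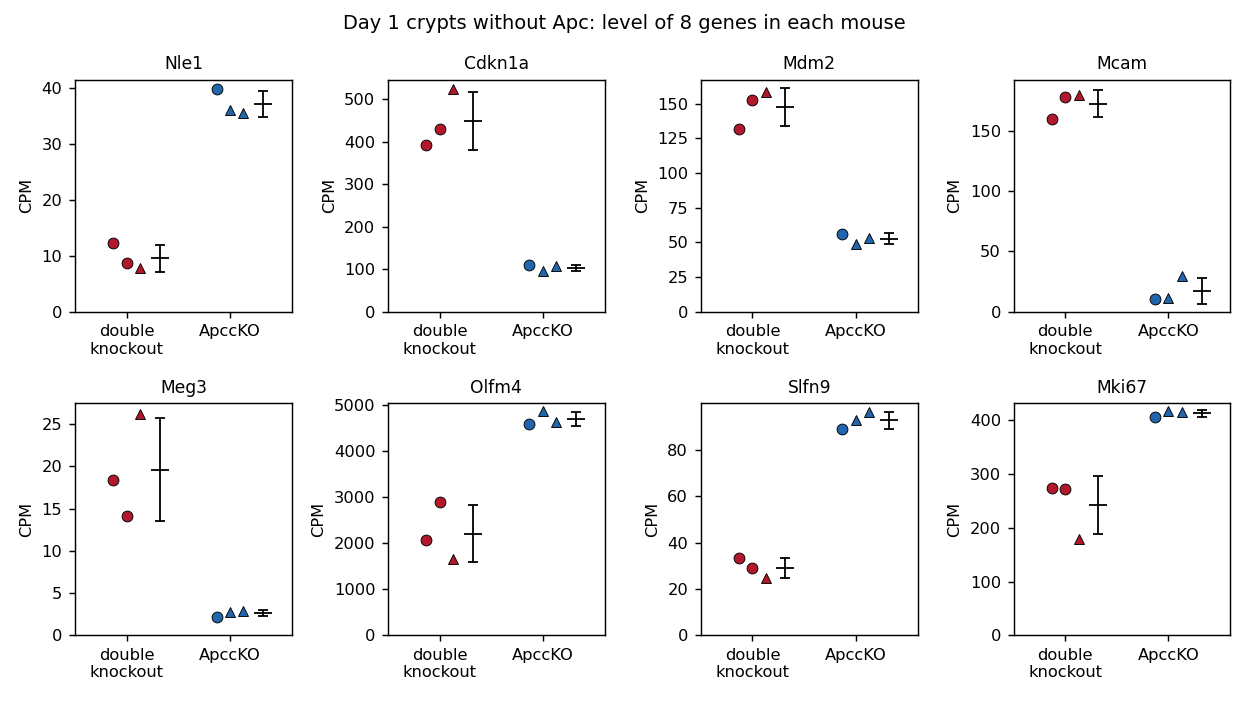
Level in CPM of 8 genes in each mouse, with double knockout mice in red on the left and ApccKO mice in blue on the right of each panel. Triangles are the 3 libraries that stood apart, and bars give the mean and SD of 3 mice. In every panel the groups do not overlap: Cdkn1a, Mdm2, Mcam and Meg3 were higher and Nle1, Olfm4, Slfn9 and Mki67 lower in the double knockout. Mcam, Meg3 and Slfn9 were named under a rule that required this.

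The 12 genes named for the largest rise at a mean of at least 5 CPM and with no overlap between groups were Mcam, Gna15, Gulo, Crip2, Cpt1c, Zfp365, Rian, Meg3, Ano3, Ggta1, Zfp385a and Slc4a11, and 4 of them (Crip2, Cpt1c, Zfp365 and Ano3) are also on the list of p53 targets in metabolism and repair. Mcam (ENSMUSG00000032135), a cell adhesion protein of endothelium and melanoma also called CD146, was at 160.1, 178 and 179.5 CPM in double knockout libraries and 10.8, 11.4 and 29.8 CPM in ApccKO libraries. It was 9.99 times as high (log2 change 3.32 ± 0.40, adjusted p = 8e-05). Gna15, a G protein alpha subunit, was at 9.34, 9.90 and 13.3 CPM in double knockout libraries and 1.32, 0.481 and 1.49 CPM in ApccKO libraries (3.30 ± 0.49, adjusted p = 0.00039).

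Crip2, a LIM domain protein, was at 64.7, 68.8 and 76.8 CPM in double knockout libraries and 12, 6.02 and 6.59 CPM in ApccKO libraries (log2 change 3.09 ± 0.45, adjusted p = 0.00039). Zfp385a, a zinc finger protein that binds p53, was at 43.7, 56.2 and 51.7 CPM in double knockout libraries and 11.1, 5.92 and 6.64 CPM in ApccKO libraries (2.67 ± 0.41, adjusted p = 0.00052). The other 8 of the 12 changed by 2.59 to 3.12, among them Ggta1, which makes the alpha-galactose epitope, and Gulo, the last enzyme of vitamin C synthesis. Gulo had the narrowest gap: 22.2, 3.40 and 15.5 CPM in double knockout libraries against 1.41, 2.50 and 0.772 CPM in ApccKO libraries. Of the 12, all but Mcam, Rian and Meg3 lost the call without the 3 libraries that stood apart.

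The 2 noncoding RNAs among the 12, Meg3 and Rian, belong to 1 imprinted cluster and are expressed from the maternal copy. Meg3 (ENSMUSG00000021268) was at 18.4, 14.2 and 26.2 CPM in double knockout libraries and 2.22, 2.79 and 2.88 CPM in ApccKO libraries (log2 change 2.90 ± 0.29, adjusted p = 4.6e-06). Rian was at 12.9, 6.99 and 15.5 CPM in double knockout libraries and 0.863, 1.97 and 1.44 CPM in ApccKO libraries (3.05 ± 0.42, adjusted p = 0.00015). The groups of both genes do not overlap, which the rule that named them required.

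The 12 genes that fell most, named by the same rule, were Sfrp5, Nle1, Slfn9, Fgfbp1, Prelp, Mycl1, Lipg, Vwa2, Clca2, Rassf4, Fgf1 and Aqp4. Sfrp5, a secreted Wnt antagonist, was at 4.60, 11 and 4.21 CPM in double knockout libraries and 17.8, 39.4 and 36.1 CPM in ApccKO libraries (-2.23 ± 0.48, adjusted p = 0.007). Its call was lost in 3 of 16 alternative settings: without double knockout replicate 3, without the 3 libraries that stood apart, and in a fit of only the libraries compared. Over the 16 settings its log2 change was -3.18 to -1.19 and its adjusted p at most 0.52. Fgfbp1, which carries FGFs out of the matrix, was at 6.26, 10.3 and 10.7 CPM in double knockout libraries and 24.4, 24.6 and 25.7 CPM in ApccKO libraries (-1.46 ± 0.24, adjusted p = 0.00063). Mycl1, the L-Myc relative of Myc, was at 49.5, 58.9 and 29.2 CPM in double knockout libraries and 95.2, 132 and 135 CPM in ApccKO libraries (-1.39 ± 0.24, adjusted p = 0.0015).

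Slfn9, a member of the Schlafen family, was at 33.5, 29.0 and 24.6 CPM in double knockout libraries and 88.8, 92.6 and 96.3 CPM in ApccKO libraries (log2 change -1.67 ± 0.14, adjusted p = 4.2e-07). It kept its call under all settings tried, as Nle1 did, and 23.6% of its 31-base words are shared with other transcripts, Slfn10-ps among them. Clca2 shares 38.0% of its words with other genes, mostly Clca3a1, so its value (-1.19 ± 0.29, adjusted p = 0.014) is uncertain. The other 6 were lower by 1.12 to 1.42 on the log2 scale; they include the water channel gene Aqp4 and the growth factor gene Fgf1. Of these 12 the calls of Fgf1, Clca2, Rassf4 and Prelp were lost in 6, 5, 4 and 3 of 16 alternative settings, those of Mycl1 and Aqp4 in 2, and those of Fgfbp1, Lipg and Vwa2 in 1.

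Genes of DNA replication fell by small amounts, with log2 changes from -0.88 to -0.20. All 41 tested S phase genes had a negative log2 change, with a median of -0.57. Of them 32 were called lower and 0 higher, where 4.77% and 5.87% of all tested genes were. Gins1, a subunit of the replicative helicase, was at 15.1, 12.7 and 11 CPM in double knockout libraries and 25.2, 24.6 and 19.0 CPM in ApccKO libraries (-0.82 ± 0.14, adjusted p = 0.0012). Tyms, which makes thymidylate, was at 53, 52.9 and 43.8 CPM in double knockout libraries and 76.0, 80.1 and 76.7 CPM in ApccKO libraries (-0.64 ± 0.12, adjusted p = 0.0017). Rpa2, part of the protein that coats single-stranded DNA, was at 32.7, 33.1 and 19.4 CPM in double knockout libraries and 53.3, 50.1 and 53.9 CPM in ApccKO libraries (-0.88 ± 0.19, adjusted p = 0.0049). Double knockout replicate 3 was the lowest library in each of these genes.

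Promoters of 3 S phase genes that fell are shown because the letters of an E2F site were common on this list. They are RefSeq windows of the same extent in build GRCm38.p6, and capitals mark the E2F letters. The Uhrf1 window, 1 of 2, is at chr17:56304063-56304362 on the plus strand, the Rfc3 window at chr5:151651159-151651458 on the minus strand and the Clspn window at chr4:126556730-126557029 on the plus strand.
Uhrf1: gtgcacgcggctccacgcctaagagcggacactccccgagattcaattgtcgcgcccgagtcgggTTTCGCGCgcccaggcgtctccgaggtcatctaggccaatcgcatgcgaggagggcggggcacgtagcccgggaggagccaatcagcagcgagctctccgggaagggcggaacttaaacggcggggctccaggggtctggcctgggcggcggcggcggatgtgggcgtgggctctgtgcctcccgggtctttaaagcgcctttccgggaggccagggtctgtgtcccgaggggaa
Rfc3: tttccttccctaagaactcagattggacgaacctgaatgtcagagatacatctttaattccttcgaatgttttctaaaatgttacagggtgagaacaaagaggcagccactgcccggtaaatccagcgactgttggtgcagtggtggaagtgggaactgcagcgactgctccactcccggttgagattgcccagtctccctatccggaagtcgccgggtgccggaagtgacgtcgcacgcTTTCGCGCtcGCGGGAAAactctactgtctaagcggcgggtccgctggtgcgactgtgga
Clspn: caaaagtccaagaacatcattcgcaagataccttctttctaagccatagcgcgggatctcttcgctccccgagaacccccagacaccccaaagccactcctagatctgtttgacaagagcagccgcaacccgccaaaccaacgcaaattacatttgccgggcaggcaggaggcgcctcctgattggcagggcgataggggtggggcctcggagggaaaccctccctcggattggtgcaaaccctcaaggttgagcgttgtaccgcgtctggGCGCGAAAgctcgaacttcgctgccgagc
The letters searched were TTTCCCGC, TTTCGCGC, TTTGCCGC and TTTGGCGC on either strand. They were found for 16 of 35 S phase genes with a window (45.7%), against 2.6% of all 27025 symbols. They were in 12 of the 27 that fell (44.4%) and in 4 of the 8 that were not called (50%). Uhrf1, which helps to copy DNA methylation, changed by -0.76 ± 0.16 (adjusted p = 0.0056), the clamp loader subunit gene Rfc3 by -0.48 ± 0.10 (adjusted p = 0.0065) and the checkpoint mediator gene Clspn by -0.64 ± 0.14 (adjusted p = 0.007).

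Mitotic genes fell as well. Of 38 tested G2 and M phase genes 19 were lower and 0 higher, where 4.77% and 5.87% of all tested genes were. All 38 changes were negative, and the median was -0.51. Mki67, the proliferation marker Ki-67, was at 274, 272 and 180.0 CPM in double knockout libraries and 406, 417 and 416 CPM in ApccKO libraries (-0.77 ± 0.16, adjusted p = 0.0053). Kif11, the motor that separates spindle poles, was at 79.2, 78.5 and 47.5 CPM in double knockout libraries and 112, 115 and 111 CPM in ApccKO libraries (-0.72 ± 0.16, adjusted p = 0.0074). The ApccKO libraries lay close together in both genes, and double knockout replicate 3 was again the lowest. The letters TTTGAA of the cell cycle element CHR, on either strand, were in the windows of 68.8% of 32 of these genes against 20.2% of all symbols, in 64.3% of the 14 that fell and in 72.2% of the 18 that were not called.

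Homologous recombination and checkpoint genes were lower in 18 of 29 cases, against 4.77% of all tested genes, with 0 higher and a median of -0.58. Bard1, the partner of BRCA1, was at 14.3, 13.2 and 10.2 CPM in double knockout libraries and 21.1, 22.0 and 22.6 CPM in ApccKO libraries (-0.80 ± 0.14, adjusted p = 0.0012). Rad51ap1, an accessory factor of strand exchange, was at 11.2, 13.8 and 11.3 CPM in double knockout libraries and 19.8, 20.2 and 19.1 CPM in ApccKO libraries (-0.70 ± 0.14, adjusted p = 0.0033). In neither gene did the groups overlap.

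The regulators of G1 moved in both directions. Of 22 tested E2F and G1 genes 7 were lower and 2 higher, where 4.77% and 5.87% of all tested genes were, with a median of -0.30. E2f1, the activator of S phase genes, was at 19.9, 23.5 and 13.2 CPM in double knockout libraries and 36.9, 38.5 and 42.5 CPM in ApccKO libraries (-1.06 ± 0.20, adjusted p = 0.0021). The 2 that rose were D-type cyclins, which start the cycle. Ccnd1 was at 383, 408 and 375 CPM in double knockout libraries and 209.6, 217 and 215 CPM in ApccKO libraries (0.86 ± 0.25, adjusted p = 0.037). Ccnd2 was at 637, 666 and 874 CPM in double knockout libraries and 404, 443 and 505 CPM in ApccKO libraries (0.69 ± 0.20, adjusted p = 0.031). Both cyclins were higher in every double knockout library than in any ApccKO library. The Ccnd1 call was lost in 9 of 16 alternative settings, and neither was called without double knockout replicate 3 or without any 1 of the ApccKO replicates.

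The number of cell cycle genes that passed depended on single libraries. Without double knockout replicate 3 the counts of lower genes were 6 of 41 for S phase, 2 of 38 for G2 and M phase, 7 of 29 for recombination and 2 of 22 for the E2F list. Without ApccKO replicate 1, 2 or 3 the G2 and M phase count was 6, 9 and 9, and the recombination count was 12, 12 and 10. Without the 3 libraries that stood apart no cell cycle gene of these 4 lists passed. With only those 3 libraries 31, 24, 14 and 6 were lower. The summed S phase level was 2986, 2899 and 2148 CPM in double knockout libraries and 3981, 3940 and 3915 CPM in ApccKO libraries, without overlap.

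**Figure D3:**
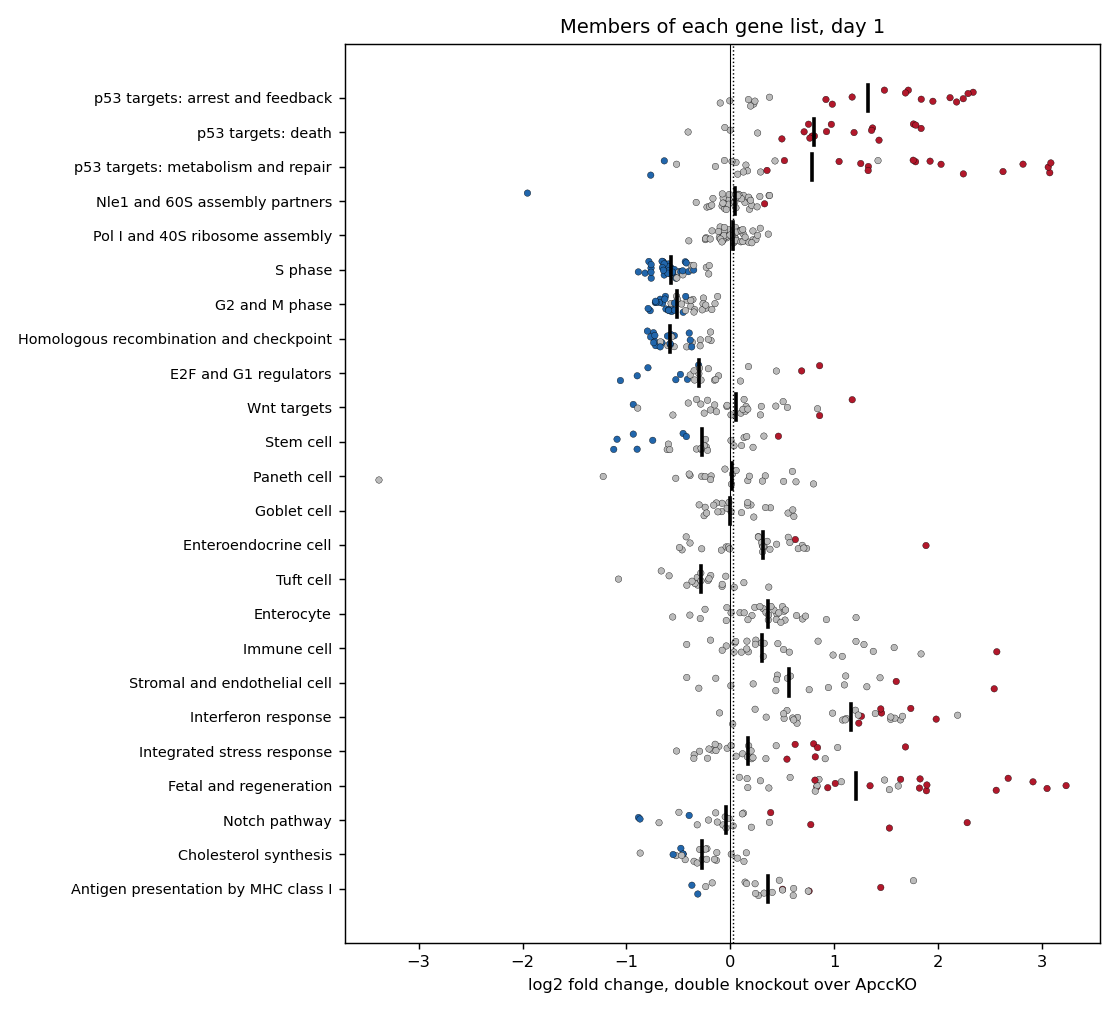
Log2 fold change (double knockout over ApccKO, day 1) of each tested member of the 24 gene lists. Red points were called higher, blue points lower and grey points not called; black bars are list medians, and the dotted line is the median of all tested genes (0.02). The p53, fetal and interferon lists lie to the right, and the cell cycle lists to the left.

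Crypt base stem cell markers were lower in part. Of 26 tested, 7 were lower and 1 (Tert) higher, where 4.77% and 5.87% of all tested genes were, with a median of -0.27. Olfm4, a secreted protein of crypt base columnar cells, was at 2074, 2891 and 1669.8 CPM in double knockout libraries and 4604, 4877 and 4642 CPM in ApccKO libraries (-1.09 ± 0.24, adjusted p = 0.0077). Lgr5, the R-spondin receptor that marks these cells, was at 81.4, 158 and 72.0 CPM in double knockout libraries and 220.3, 174 and 200.2 CPM in ApccKO libraries (-0.93 ± 0.25, adjusted p = 0.023). Smoc2, a matrix protein of the same cells, was at 171, 229.6 and 135 CPM in double knockout libraries and 309, 286 and 303 CPM in ApccKO libraries (-0.75 ± 0.19, adjusted p = 0.015). In all 3 genes replicate 2 was the highest of the double knockout libraries and still lay below the ApccKO range. Aqp4, Clca3b, Cdca7 and Lrig1 were the others that fell. Without double knockout replicate 3 the count of lower genes was 1, and without ApccKO replicate 1 it was 4. It was 0 without the 3 libraries that stood apart and 7 with only those.

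Wnt target genes changed in few cases. Of 28 tested, 2 were higher and 1 lower, shares close to those of all genes (5.87% and 4.77%), with a median of 0.05. The 3 were Notum, the secreted Wnt deacylase (1.17 ± 0.29, adjusted p = 0.014), Ccnd1 and Lgr5, and each lost its call in 6 or more of 16 alternative settings. Axin2, the common readout of beta-catenin activity, was at 354, 443 and 393 CPM in double knockout libraries and 442, 444 and 499 CPM in ApccKO libraries, which overlap (-0.22 ± 0.15, adjusted p = 0.39). Myc was at 227, 258 and 248 CPM in double knockout libraries and 268, 202 and 214 CPM in ApccKO libraries (0.10 ± 0.20, adjusted p = 0.8).

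Markers of fetal and regenerating epithelium were higher. All 28 tested had a positive change, with a median of 1.21. Of them 15 were called higher and 0 lower, where 5.87% and 4.77% of all tested genes were. The genes that passed include ligands of the EGF receptor, annexins and the surface protein Ly6a, also called Sca-1. Ereg, which encodes the ligand epiregulin, was at 14.4, 7.75 and 18.5 CPM in double knockout libraries and 3.63, 3.42 and 3.86 CPM in ApccKO libraries (1.89 ± 0.37, adjusted p = 0.003). Areg, which encodes amphiregulin, was at 66.7, 47.6 and 96.6 CPM in double knockout libraries and 21, 21.3 and 17.3 CPM in ApccKO libraries (1.82 ± 0.38, adjusted p = 0.0057). Ly6a was at 84.4, 31.8 and 101 CPM in double knockout libraries and 22.8, 6.21 and 7.52 CPM in ApccKO libraries (2.56 ± 0.62, adjusted p = 0.015).

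Replicate 2 was the lowest double knockout library in Ereg, Areg and Ly6a, and the groups did not overlap. Clu, the clusterin of revival stem cells, was at 134, 80.3 and 73.0 CPM in double knockout libraries and 60.5, 32.3 and 20.1 CPM in ApccKO libraries (1.35 ± 0.41, adjusted p = 0.045). Large changes were also called in genes of low level, among them Anxa8 (3.23) and the gap junction gene Gja1 (3.05), the second at no more than 4.59 CPM in any of the 6 libraries. The count of higher genes was 9 without double knockout replicate 1 or 3, 9 without ApccKO replicate 2 and 8 without ApccKO replicate 3. It was 0 without the 3 libraries that stood apart and 11 with only those.

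The Notch pathway changed in a few members. Of 22 tested 4 were higher and 3 lower, where 5.87% and 4.77% of all tested genes were, with a median of -0.04. The receptor gene Notch3 was at 32.8, 36.1 and 44.6 CPM in double knockout libraries and 12, 4.53 and 6.74 CPM in ApccKO libraries (2.28 ± 0.41, adjusted p = 0.0018). The ligand gene Jag2 was at 47.0, 52.4 and 60.7 CPM in double knockout libraries and 21.5, 17.5 and 16.3 CPM in ApccKO libraries (1.53 ± 0.30, adjusted p = 0.0035). Lfng, a Fringe enzyme that sets which ligands a receptor answers, was at 22.8, 19.7 and 15.1 CPM in double knockout libraries and 36.7, 35.0 and 33.6 CPM in ApccKO libraries (-0.87 ± 0.17, adjusted p = 0.0024). None of the 3 overlapped between groups. Jag1 (0.78) and the coactivator gene Maml1 (0.39) were the others that rose, and Hes7 (-0.88) and Dll1 (-0.40) the others that fell. The main receptor of crypts, Notch1 (-0.05), and its target Hes1 (0.03) were not called. The count of higher genes was 2 without double knockout replicate 3 or ApccKO replicate 1 or 2, and the count of lower genes was 1 without double knockout replicate 3 or ApccKO replicate 3. Without the 3 libraries that stood apart no gene of the Notch list was called, and with only those libraries 3 were higher and 1 lower.

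In the integrated stress response ATF4 answers a block of translation initiation. On its list 6 of 30 members were called higher, against 5.87% of all tested genes, with 0 lower and a median of 0.17. Atf4 was at 226, 231 and 209 CPM in double knockout libraries and 156, 143 and 157 CPM in ApccKO libraries (0.55 ± 0.09, adjusted p = 0.00046). Atf5 changed by 0.80 ± 0.17 (adjusted p = 0.0064), Ddit3, which encodes CHOP, by 0.63 ± 0.15 (adjusted p = 0.013), and Sesn2, which is also a p53 target, by 1.69 ± 0.22 (adjusted p = 9.8e-05). The others were Ddit4 and Slc7a11. The amino acid synthesis targets of ATF4 were not called, with Asns at -0.18, Psat1 at -0.11 and Phgdh at -0.30. The count was 3 without ApccKO replicate 2, and 4 without double knockout replicate 3 or ApccKO replicate 3. It was 0 without the 3 libraries that stood apart and 4 with only those.

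Interferon response genes were higher in 6 of 30 cases, against 5.87% of all tested genes, with 0 lower and a median of 1.16. Tap1, a transporter of peptides for antigen presentation, was at 88.3, 85.7 and 145 CPM in double knockout libraries and 39.1, 31.4 and 46.4 CPM in ApccKO libraries (1.45 ± 0.23, adjusted p = 0.00058). Ifit3 was at 7.82, 5.45 and 42.4 CPM in double knockout libraries and 3.36, 2.70 and 8.03 CPM in ApccKO libraries, which overlap (1.98 ± 0.58, adjusted p = 0.036), and 61.8% of its 31-base words are shared with other genes, Ifit3b among them. Double knockout replicate 3 was the highest library in both. The summed interferon level was 741, 645 and 1563 CPM in double knockout libraries and 482, 496 and 717 CPM in ApccKO libraries.

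The interferon count was 20 without double knockout replicate 2 and 10 without double knockout replicate 1. It was 1 without double knockout replicate 3 or ApccKO replicate 2, and 2 without ApccKO replicate 1. It was 0 without the 3 libraries that stood apart, 21 with only those and 23 with a term for the split, and DESeq2 called 14. Immune cell markers summed to 599, 399 and 956 CPM in double knockout libraries and 218, 234 and 528 CPM in ApccKO libraries. These sums overlap between the groups and cover 29 markers, none of them at 0 in all 6 libraries. Of 28 tested, 1 was called higher, against 5.87% of all tested genes. That 1 was the macrophage gene Adgre1, at no more than 0.427 CPM in any of the 6 libraries. Of the 28, 24 had a positive log2 change, with a median of 0.31. The MHC class II genes H2-Aa (1.84, adjusted p = 0.09) and Cd74 (1.58, adjusted p = 0.11) had the next largest after Adgre1. The part of immune cells in the interferon values was not tested. On the list of MHC class I presentation 3 of 20 were higher (Tap1, Tap2 and H2-D1) and 2 lower, where 5.87% and 4.77% of all tested genes were. The 2 lower were the chaperone genes Calr (-0.37 ± 0.08, adjusted p = 0.0048) and Pdia3 (-0.31 ± 0.08, adjusted p = 0.019). The count of higher genes was 6 without double knockout replicate 2 and 1 without double knockout replicate 1 or 3 or ApccKO replicate 1 or 2, and the count of lower genes was 1 without double knockout replicate 3 or ApccKO replicate 1 or 2. Without the 3 libraries that stood apart none of the 20 was called, and with only those 5 were higher and 0 lower.

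**Figure D4:**
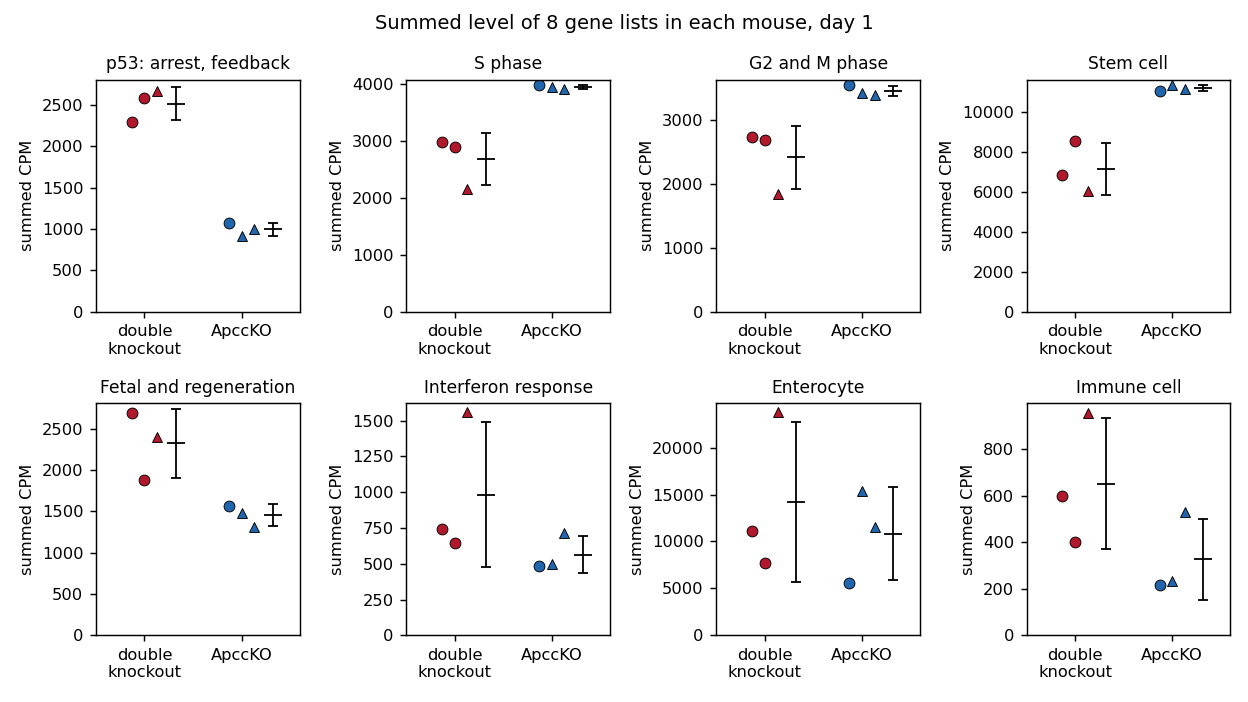
Summed level in CPM of all members of 8 gene lists in each mouse, with double knockout mice in red on the left and ApccKO mice in blue on the right of each panel. Triangles are the 3 libraries that stood apart, and bars give the mean and SD of 3 mice. The p53, S phase, G2 and M phase, stem cell and fetal sums do not overlap between groups; the interferon, enterocyte and immune sums do, and double knockout replicate 3 is the highest in those 3.

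Markers of the differentiated cell types passed rarely. Among enterocyte (32 tested), goblet (22), Paneth (21) and tuft cell genes (19) edgeR called 0, DESeq2 called 0, and at an unadjusted p under 0.05 there were 2, 4, 1 and 1. Their medians were 0.37, 0.00, 0.01 and -0.28. Summed enterocyte markers were 11094, 7731 and 23786 CPM in double knockout libraries and 5600, 15408 and 11526 CPM in ApccKO libraries, which overlap widely. Of 27 enteroendocrine genes 2 were higher, the peptide hormone genes Pyy (1.89 ± 0.47, adjusted p = 0.015) and Ghrl (0.63 ± 0.16, adjusted p = 0.015), and each lost its call without double knockout replicate 3 or ApccKO replicate 3. That share of the list is close to the 5.87% of all tested genes that were higher. Of 18 stromal and endothelial genes 2 were higher, Dcn and Col6a1, against 5.87% of all tested genes. The log2 change was positive in 15 of the 18 and negative in 3, with a median of 0.57. Dcn and Col6a1 lay at no more than 7.32 and 3.16 CPM, and neither was called without double knockout replicate 2. Of 23 cholesterol synthesis genes 4 were lower and 0 higher, where 4.77% and 5.87% of all tested genes were, with a median of -0.27. The 4 included Acat2, Sqle and Pmvk, at -0.45 to -0.55, and 1 of the list was lower without double knockout replicate 3 or ApccKO replicate 2. The count of lower genes was 0 without the 3 libraries that stood apart and 2 with only those. Acat2 shares 43.7% of its words with other genes, among them Acat3.

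The Nle1 contrast in other mice gave changes of like sign. In Apc-lost crypts on day 2, where 5775 genes (34.9%) were called, 844 of the 972 genes that rose on day 1 were also called higher, which is 86.8% of the day 1 genes and 26.2% of the 3221 raised on day 2 (19.5% of all genes). Of the 790 that fell, 696 were also called lower (88.1% of the day 1 genes and 27.3% of the 2554 of day 2, 15.4% of all genes), and 2 were called higher. In crypts with intact Apc on day 1, where 411 genes (2.48%) were called, 106 of the 972 were also higher (10.9% of them, and 73.6% of the 144 raised there, 0.87% of all genes) and 190 of the 790 also lower (24.1%, and 71.2% of the 267 lowered there, 1.61% of all genes). By sign alone 90.2% of the raised and 95.2% of the lowered genes moved the same way with intact Apc, where 49.3% and 50.6% of all tested genes were above and below zero. The 3 comparisons share no library. Across the 16552 genes, which are not independent, the changes correlated at a Pearson r of 0.576 and a Spearman rho of 0.637 with day 2, and at 0.286 and 0.459 with intact Apc.

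**Figure D5:**
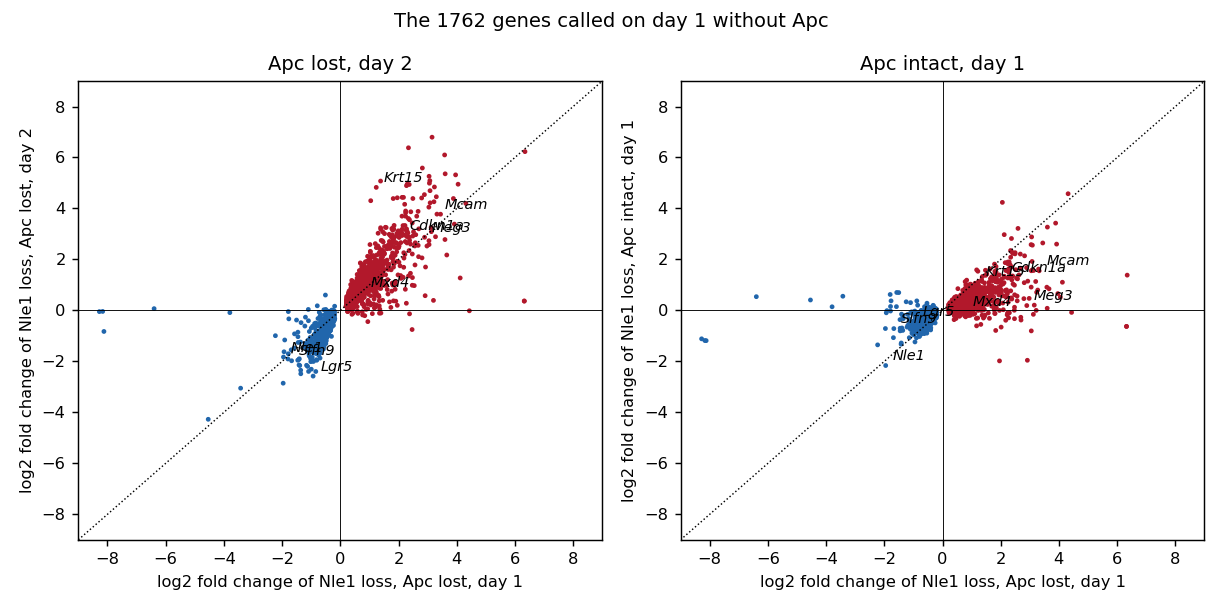
Log2 fold change of Nle1 loss for the 1762 genes called in Apc-lost crypts on day 1 (horizontal) against the same contrast in Apc-lost crypts on day 2 (left) and in crypts with intact Apc on day 1 (right). Red genes were higher and blue genes lower on day 1, and dotted lines mark equal changes. Krt15 lies above the dotted line on the left, and Meg3 and Mxd4 lie near zero on the right.

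The 972 raised genes had a median log2 change of 0.74 in Apc-lost crypts on day 1, 0.86 on day 2 and 0.27 with intact Apc, and the first of these is the value that chose the genes. Cdkn1a changed by 2.12 in Apc-lost crypts on day 1, against 1.30 with intact Apc (adjusted p = 0.0058), and by 2.94 on day 2. The difference between Apc states was 0.82 for Cdkn1a (adjusted p = 0.56). In the test of the difference between Apc states, edgeR called 2 genes (0.0121%), Meg3 and Mxd4, both more positive without Apc. DESeq2 called 42. Meg3 changed by 2.90 in Apc-lost crypts and by 0.19 in crypts with intact Apc (difference 2.70, adjusted p = 0.041). Mxd4, an antagonist of Myc, was at 51.3, 56.7 and 52.3 CPM in double knockout libraries and 29.9, 29.8 and 33.6 CPM in ApccKO libraries, and changed by 0.78 there and by -0.05 with intact Apc (difference 0.83, adjusted p = 0.041). Each of these 2 calls was lost in 14 of 21 alternative settings.

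The gene lists can be set side by side in the same 3 comparisons. Higher p53 targets of arrest, death and metabolism numbered 13, 15 and 16 in Apc-lost crypts on day 1, 10, 9 and 8 with intact Apc, and 15, 16 and 20 on day 2. Lower S phase genes numbered 32 on day 1 without Apc, 24 with intact Apc and 40 on day 2, and lower G2 and M phase genes 19, 7 and 33. The median S phase change was -0.57 on day 1 without Apc, -0.58 with intact Apc and -0.94 on day 2. Stem cell markers had medians of -0.27, -0.21 and -0.79 in the same order, and fetal markers of 1.21, 0.72 and 1.35. Whether these counts differ between comparisons was not tested, and the comparisons called very different shares of all genes. On the 60S assembly list 1 of 38 genes was higher and 1 lower on day 1, where 5.87% and 4.77% of all tested genes were. On day 2, where 19.5% and 15.4% of all genes were higher and lower, 12 of the 38 were higher and 2 lower.

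In the test of day 2 against day 1 in Apc-lost crypts, 72 genes (0.435%) changed to a different extent, 40 towards higher and 32 towards lower. Krt15, a keratin of stem and basal cells, was at 26.6, 23.3 and 23.8 CPM in double knockout libraries of day 1 and 11.6, 8.33 and 11.4 CPM in ApccKO libraries of day 1 (log2 change 1.24 ± 0.24, adjusted p = 0.0031). Its change on day 2 was 4.83, a difference of 3.59 (adjusted p = 6.4e-05) that was called in all 21 alternative settings. Of the p53 targets, Ccng1 (difference 1.22), Dcxr (0.998), Ephx1 (1.18) and Trim7 (1.11) changed more upwards on day 2, as did Sco2, whose fitted difference depends on the prior count because the ApccKO libraries of day 2 held 0 counts, and the stem cell marker Lgr5 (-1.64) changed more downwards.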

How the data were processed

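The study sequenced polyadenylated RNA from crypts of 24 mice, 3 in each of 8 groups. The deposited table holds estimated counts per gene, and the submitters' processing notes name kallisto 0.43, build mm9, DESeq2 and DESeq. No source used here gives the annotation release or the use of strand, so antisense and overlapping genes are uncertain, and kallisto splits reads between genes with shared sequence. The authors' size-factor-normalised and TPM tables were not used.

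The estimated counts of each column, matched to a sample by its source name, were rounded and fitted over all 24 libraries with edgeR 4.0.16 in R 4.3.3 (limma 3.58.1; TMM scaling, minimum count of 10 in filterByExpr, robust quasi-likelihood test, Benjamini-Hochberg over 16552 genes). The biological coefficient of variation was 17.6%. DESeq2 1.42.0 was an alternative. CPM use the TMM-scaled library sizes. Errors of log2 changes are SE, and n = 3 mice a group. All 24 libraries held 17.9 to 26.5 M counts, with a median of 19.8 M. Of 683 list genes 663 were found by symbol and 15 by identifier, and 661 were tested; the 5 others were not analysed here. The values of a few list members are not reported here. Shared 31-base words were counted on GENCODE M21 transcripts, which are not of the files' build.

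The comparison, the gene lists and the promoter motifs were chosen with earlier results of these data known. The genes named were Nle1 and Apc, the 12 most raised and 12 most lowered (adjusted p under 0.05, at least 5 CPM, no overlap between groups, no provisional symbol), up to 4 members of each list with the smallest p, and 3 in each direction for each difference between comparisons. Gdf15, Plk2, Phlda3, Fas, Bbc3, Eda2r, Ddb2, Rad51c, Areg, Ly6a, Clu, Uhrf1, Rfc3, Clspn and Ccnd2, the list members named as not called, and the genes of the observations that close the text were chosen after their values were seen.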

Additional observations from a re-analysis of the deposited data

Results flagged for a closer look

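The effect of Nle1 loss on day 1 differed between Apc-lost crypts and crypts with intact Apc in 2 genes by edgeR's interaction test. Meg3 differed by 2.70 on the log2 scale (2.90 without Apc, 0.19 with it) and Mxd4 by 0.83 (0.78 without Apc, -0.05 with it), each at an adjusted p of 0.041. Over 21 alternative settings each of the 2 lost its call in 14.

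In Apc-lost crypts the effect on day 2 differed from that on day 1 in 72 genes by the same test. The day difference was 3.59 for Krt15, 1.22 for Ccng1, 0.998 for Dcxr, 1.18 for Ephx1, 1.11 for Trim7 and -1.64 for Lgr5, genes that had moved the same way on day 1. It was 1.87 for the cytochrome gene Cyp2e1, 1.78 for the adaptor gene Fyb, -4.20 for the chymosin gene Cym, -2.75 for Fstl4 and -2.52 for the actin regulator gene Cap2, none of which was called on day 1. Over 21 alternative settings the day difference lost its call in 12 for Cyp2e1 and for Fstl4, in 9 for Cym, in 6 for Sco2, in 2 for Cap2 and in 0 for Krt15. For Sco2, a copper chaperone of cytochrome c oxidase, the fitted difference of 9.66 depends on the prior count, because the 3 ApccKO libraries of day 2 held 0 counts. The double knockout libraries of day 2 held 288, 246 and 278 counts, which is 97.8-fold higher against a floor of 3 counts per library. Of the 31-base words of Sco2 66.2% are shared with other genes, mainly Tymp. Its counts, the 0 counts included, are therefore uncertain, and the fold against the floor is not a lower bound.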

How the results depend on the processing

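The fit reported called 1762 genes on day 1. In all, DESeq2 called 2229, edgeR with DESeq2 size factors 1796, a fit without the low-count filter 1297, a filter of 2 CPM 1905 and a term for sex 1965. Sex was inferred from the summed level of 4 Y-linked genes, with male above 10 CPM. Of the libraries compared, double knockout replicate 1 and ApccKO replicate 2 were read as male. A fit of only the 6 libraries compared called 535, leaving out the 3 libraries that stood apart 33, a term for them 2452, and leaving out 1 replicate at a time 600 to 2147. Keeping only the 3 libraries that stood apart called 1209. The term for those 3 and the fit of only those 3 were chosen after seeing the data. The share of higher calls was 55.2% in the fit reported, 46.9% with DESeq2 and 47.7% with its size factors. Where an arm had 1 library, its spread was taken from the other groups.

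The difference between Apc states was called in 2 genes in the fit reported, in 42 with DESeq2, 0 with its size factors, 0 with the filter of 2 CPM, 4 with the term for sex, 1 with only the libraries compared, 3 without the 3 libraries that stood apart, 1 with a term for them, and 0 to 7 without 1 replicate. The difference between days was called in 72 genes in the fit reported, in 275 with DESeq2, 113 with the term for sex, 5 without the 3 libraries that stood apart, 46 with a term for them, and 8 to 134 without 1 replicate. The causes were not tested, beyond the smaller number of libraries where some are left out.

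The uncalled genes Rgs13 and Fyb changed sign: Rgs13 was 0.27 without the 3 libraries that stood apart, and Fyb was -0.68 to 0.047 without 1 replicate, the last without ApccKO replicate 3. Over all settings and named genes, 1728 values stayed on their side of the threshold, 292 lost the call and 29 gained it.

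Same-numbered libraries of the double knockout and ApccKO correlated at 0.196, -0.232 and 0.196 in their deviations from the group means. Libraries of different numbers correlated at -0.316 to 0.144. Deviations from a mean of 3 libraries depend on each other, so these values cannot tell whether replicate numbers pair the libraries. With the replicate block 1603 genes were called on day 1, 0 for the Apc difference and 62 for the day difference.

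Depth of 17.9 to 20.5 M counts limits genes under about 1 CPM, such as Adgre1 and Mirg, to few counts.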

Other observations

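The imprinted cluster that holds Meg3 and Rian was looked at further after their values were seen. Of its 5 tested genes 4 were higher in the double knockout, where 5.87% of all tested genes were. The 4 include Meg3 and Rian, whose rise led to the choice of this cluster. Dlk1, a paternally expressed relative of Notch ligands, was at 1.14, 2.39 and 2.03 CPM in double knockout libraries and 0.0454, 0.433 and 0.309 CPM in ApccKO libraries (log2 change 2.81 ± 0.61, adjusted p = 0.0057 by edgeR's quasi-likelihood test). Mirg, a noncoding RNA of the maternal copy, was at 0.664, 0.478 and 1.01 CPM in double knockout libraries and 0, 0.0963 and 0.154 CPM in ApccKO libraries (adjusted p = 0.008). The paternally expressed Rtl1 was not called (0.91, adjusted p = 0.35). With intact Apc none of the 5 was called, and on day 2 without Apc the 4 were higher again, by 2.06 to 2.87. With intact Apc, Dlk1, Rian and Mirg lay at no more than 0.296, 0.696 and 0.109 CPM, so few counts limit a call there. By edgeR's quasi-likelihood test their differences between Apc states were not called (adjusted p = 0.89, 0.59 and 0.79).

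Slfn9 lies near Nle1 in the RefSeq gene order. Of 6 tested genes around Nle1, Slfn9 was lower and Slfn5 higher, where 4.77% and 5.87% of all tested genes were. Slfn5 was at 2.09, 1.82 and 5.44 CPM in double knockout libraries and 0.499, 0.722 and 1.49 CPM in ApccKO libraries (1.78 ± 0.52, adjusted p = 0.035). The neighbours Lig3 (-0.05) and Rffl (0.13) were not called, nor was Fndc8 (-1.84, adjusted p = 0.055), and Rad51d was not analysed here. Slfn9 was also lower with intact Apc (-0.71, adjusted p = 0.013) and on day 2 (-1.98).

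In the Myc, Max and Mxd network 1 of 11 genes was higher (Mxd4) and 2 lower, where 5.87% and 4.77% of all tested genes were. Mxd3, a Mxd member of dividing cells, was at 1.71, 1.87 and 1.28 CPM in double knockout libraries and 4.63, 3.61 and 4.79 CPM in ApccKO libraries (-1.42 ± 0.22, adjusted p = 0.00041), and Mycl1 was the other. Myc, Max and Mycn were not called.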
